A study of Rattus norvegicus with 10 samples.

Results

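Voltage-gated calcium and sodium channel genes were taken as every row of the deposited raw count table whose symbol begins with Cacn, or with Scn and a digit, with rows of one symbol summed. The rule gave 39 of 13670 symbols, and 32 of the 39 passed a filter on low counts that left 12000 genes for testing. The libraries came from the left hippocampus of 10 female TgF-344AD rats (genotype Tg-AD in the labels) aged 11 months. The untreated group (n = 5) ate ordinary rodent chow, and the BT-11 group (n = 5) ate chow containing BT-11, a small molecule known as a ligand of LANCL2, for 6 months from the age of 5 months. All 10 animals carry the transgenes. As background, the line expresses mutant human APP and presenilin genes under a mouse prion promoter, so amyloid is made in many brain cell types. Wild-type rats and the dose in the chow are not analysed here. The submitters' text calls the animals male in 1 place and female elsewhere, and female is used. Each library is 1 rat, so errors below are spread between animals.

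A voltage-gated calcium or sodium channel is built around 1 large pore-forming alpha subunit with a ring of voltage sensors, and smaller auxiliary subunits set where it sits and how it gates. Sodium channels carry the upstroke of the action potential from the axon initial segment. Calcium channels turn that depolarization into calcium entry, which triggers transmitter release at terminals and calcium signals in dendrites. In the hippocampus both families are mainly neuronal.

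Library totals ran from 13721673 to 19700443 estimated counts, of which Rn18s, the ribosomal RNA row with most reads, took 3.08% to 7.01%. Marker lists of hippocampal cell types were present in all libraries. List levels are the mean of log2(CPM + 1) over list members that passed the filter, where CPM scales counts to a common library size (TMM). These were 4 of 6 dentate granule genes, 7 of 9 thalamus genes and 6 of 9 choroid plexus genes. The dentate granule list lay between 5.08 and 5.83, the CA1 list between 5.44 and 6.14 and the CA3 and CA2 list between 4.80 and 5.37. The thalamus list lay lower, between 2.87 and 3.36, and the striatum list between 3.41 and 4.12. Lists hold different genes, so their levels do not rank tissues by amount. Untreated library 4 and BT-11 library 3 stand apart in choroid plexus transcripts, with list levels of 6.47 and 6.21 against 1.59 to 3.56 in the other 8 libraries. In the list of red and blood cells BT-11 libraries 1, 2 and 4 stand apart, at 4.11, 4.46 and 6.76 against 1.71 to 2.73 in the other 7, and both tested genes of that list were higher with BT-11 (median log2 fold change 2.88). The leading counts are therefore also given without the choroid-rich pair and without the 3 blood-rich libraries.

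None of the 32 tested channel genes passed the quasi-likelihood test (edgeR, Benjamini-Hochberg adjusted p from 0.809 to 0.989 over all 12000 genes). The share of all genes passing was 0%. DESeq2 passed 0 channel genes as well, and 8 genes in all. At an unadjusted p under 0.05 there were 3 channel genes higher with BT-11, Cacna1c, Cacna1i and Cacna1a, which is 9.38% of those tested against 2.53% of all genes, and 0 channel genes lower against 3.42% of all genes. These are small counts that moved with single libraries, from 0 (leaving out untreated library 1, untreated library 2, untreated library 3 or BT-11 library 2) to 5 (leaving out untreated library 4). Leaving out BT-11 library 4 or BT-11 library 5 gave 1, and leaving out both choroid-rich libraries gave 8. Of that pair, untreated library 4 had 12 of 15 pore genes above their mean over all libraries and BT-11 library 3 had 3. Leaving out the 3 blood-rich libraries, all of the BT-11 group, left only BT-11 libraries 3 and 5 in that group and gave 0. Log2 fold changes were then 0.19 for Cacna1c, 0.15 for Cacna1i and 0.04 for Cacna1a (0.33, 0.28 and 0.21 with all libraries). The part of blood in these differences was not tested.

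By direction alone, 23 of 32 channel genes had a log2 fold change above 0, which is 71.9% against 50% of all genes tested. The median log2 fold change was 0.06 over the channel genes and -0.000157 over all genes. A log2 fold change above 0.1 was found for 14 of the channel genes, or 43.8% against 20.8% of all genes, and one below -0.1 for 4, or 12.5% against 21.8%. Without both choroid-rich libraries 24 were above 0, with a median of 0.11, and without the 3 blood-rich libraries 18, with a median of 0.03. In 0 of the 32 did all BT-11 rats lie above or below all untreated rats, while 0.3% of all genes were separated upward and 0.542% downward. For 27 of 32 genes the 95% interval of the fold lay within a factor of 1.5 either way, and for 12 within a factor of 1.25.

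Pore-forming and auxiliary subunits are given apart, and the difference between them was not tested. Of 15 tested pore genes 12 were higher with BT-11, with a median log2 fold change of 0.15, and of 17 auxiliary genes 11 were higher, with a median of 0.03. Auxiliary here means every tested channel gene that is not a pore gene. It includes 6 gamma genes that encode partners of AMPA-type glutamate receptors (TARPs, below), 3 higher and 3 lower. Calcium pore genes had a median of 0.16 (7 of 8 higher) and sodium pore genes one of 0.10 (5 of 7 higher).

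**Figure D1:**
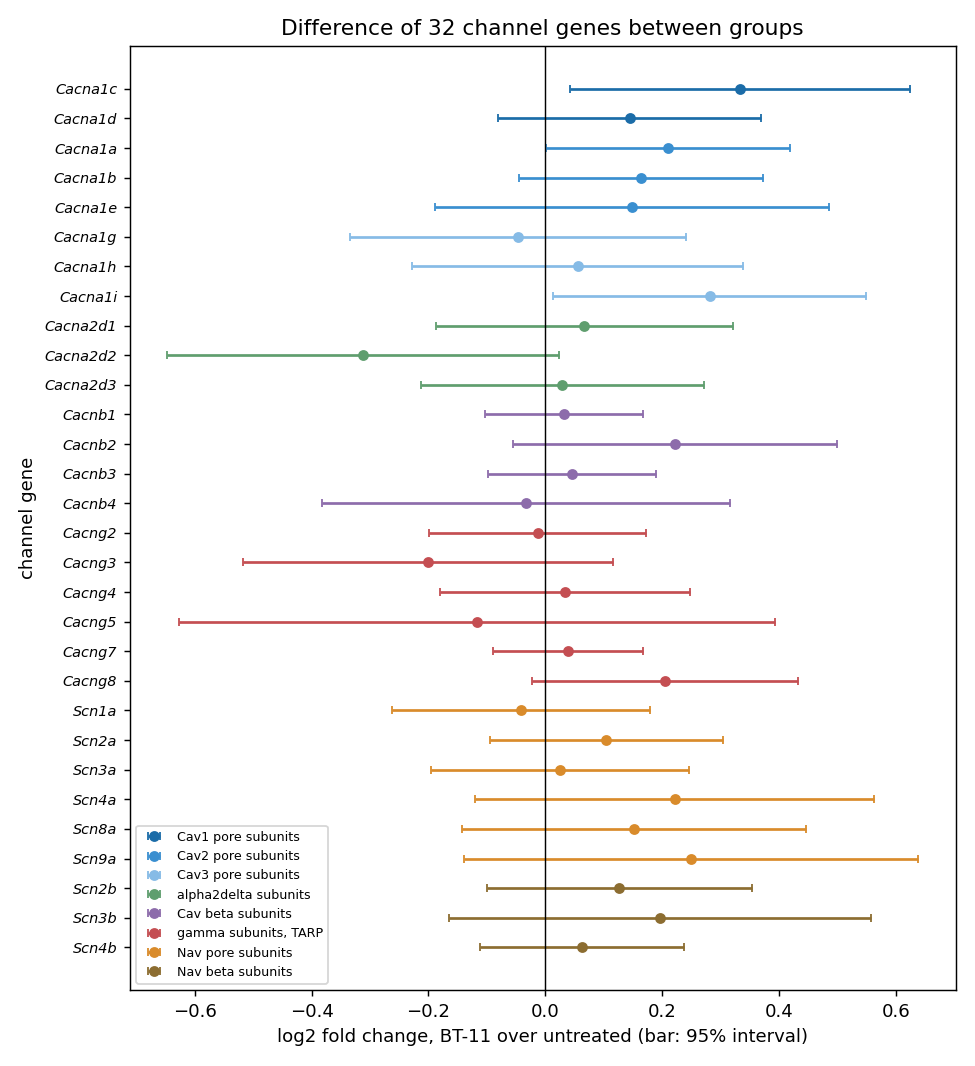
Log2 fold change of BT-11 over untreated for 30 tested channel genes, in order of role, with bars for the 95% interval (n = 5 rats a group). The intervals of Cacna1c, Cacna1a and Cacna1i have their lower ends just above 0.

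Pore genes are long transcripts, and transcript length moved with the direction of change. Among the other genes tested, the 625 with a main transcript row over 6000 bases had a median log2 fold change of 0.03 and 62.6% were higher, whereas the 5170 of up to 2000 bases had a median of -0.02 and 43.7% were higher. All 15 pore genes fall in the class over 6000 bases, with their median of 0.15. The neuron marker list moved the same way, with 9 of 10 genes higher and summed levels of 7032 to 9032 CPM in untreated and 8684 to 10112 CPM in BT-11 rats, and the list of mature oligodendrocytes and myelin moved the other way, with 13 of 13 genes lower and summed levels of 9134 to 16967 CPM against 6709 to 9885 CPM. With the neuron level as a covariate, a setting chosen after seeing the data, 17 of 32 channel genes were above 0 and 0 were higher at an unadjusted p under 0.05. Adjusting for the myelin list instead gave 14 and 0. The level of that list ran from 7.78 to 8.33 in untreated and from 7.25 to 7.81 in BT-11 rats, so it nearly divides the groups. Adjusting for it also takes out part of the group difference, so myelin level and treatment cannot be told apart in that setting. The part of length and of tissue makeup in the differences was not tested. In bulk tissue, fewer cells of a type and less RNA per cell cannot be told apart.

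The sequences just upstream of the start of 3 calcium pore genes, picked after their values were seen, are shown because they differ in CpG content. This does not follow the channel classes, since the Cav2 gene Cacna1e had 6 CpG and the Cav1 gene Cacna1d had 56. Each run holds the 250 bases before the RefSeq start in GRCr8, 5′ to 3′ on the gene's strand, with matches to searched motifs in capitals. The motifs were the GC box GGGCGG, the TATA box TATAAA, the cAMP response element TGACGTCA and the E-box CACGTG, on both strands, with overlapping matches counted.
Cacna1c: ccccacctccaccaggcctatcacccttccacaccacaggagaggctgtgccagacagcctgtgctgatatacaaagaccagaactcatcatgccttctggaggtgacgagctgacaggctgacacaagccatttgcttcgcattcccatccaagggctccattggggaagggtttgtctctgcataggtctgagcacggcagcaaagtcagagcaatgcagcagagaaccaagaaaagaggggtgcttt
Cacna1a: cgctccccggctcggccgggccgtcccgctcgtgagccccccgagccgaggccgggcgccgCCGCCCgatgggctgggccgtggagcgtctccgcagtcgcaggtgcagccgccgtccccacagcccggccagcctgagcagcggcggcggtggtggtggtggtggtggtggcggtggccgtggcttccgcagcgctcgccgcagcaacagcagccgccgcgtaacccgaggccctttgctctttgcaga
Cacna1b: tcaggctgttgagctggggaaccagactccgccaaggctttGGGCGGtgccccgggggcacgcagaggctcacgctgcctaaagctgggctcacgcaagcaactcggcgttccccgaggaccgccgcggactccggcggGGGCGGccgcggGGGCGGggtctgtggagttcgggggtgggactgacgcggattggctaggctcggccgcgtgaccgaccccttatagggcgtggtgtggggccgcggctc
The Cacna1c window (chr4:154051749-154051998, minus strand) held 3 CpG and none of the 4 motifs. The Cacna1a window (chr19:40650469-40650718, minus strand) held 34 CpG and 1 GC box, and the Cacna1b window (chr3:27944286-27944535, minus strand) held 28 CpG and 3 GC boxes. Of 21 tested channel genes with an entry in the promoter table, 10 held a GC box, 1 (Cacng2) a TATA box and 0 either of the other motifs. Over 33469 promoters of the same length these shares were 30.5% for the GC box, 12.9% for the TATA box, 1.59% for the cAMP response element and 5.59% for the E-box. The median CpG count was 16 for the channel genes and 5 for all promoters. The 33469 promoters were not limited to genes that passed the filter, so the channel genes are not set against a like group. A gene with several starts has others that were not searched.

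L-type calcium channels of the Cav1 class open at strong depolarization and couple activity to gene expression in neurons. Cacna1c, the main L-type pore of forebrain neurons (rn6 chromosome 4, 150641066 to 151269160), measured 69.3, 74.5, 62.9, 97.4 and 98.5 CPM in untreated rats 1 to 5 and 109.7, 118.6, 81.6, 94.6 and 102.9 CPM in BT-11 rats 1 to 5. All 5 BT-11 rats lay above the untreated mean, but the groups overlapped, since untreated rats 4 and 5 stood above BT-11 rats 3 and 4. Group values were 80.5 ± 16.4 CPM (SD, n = 5) and 101.5 ± 14.2 CPM (SD, n = 5), a fold of 1.26 with a 95% interval of 1.03 to 1.54 (edgeR, adjusted p = 0.809). Its log2 fold change of 0.33 ± 0.134 (SE) was 0.25 to 0.41 when 1 library was left out in turn, 0.48 without both choroid-rich libraries and -0.01 after adjusting for the myelin list.

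Cacna1d, the L-type pore that opens at more negative voltages (rn6 chromosome 16, 6112150 to 6404958), measured 53.5 to 66.4 CPM in untreated and 54.2 to 82.2 CPM in BT-11 rats. BT-11 rat 1 was the highest and untreated rat 1 the lowest, with 2 BT-11 rats below the untreated mean. The log2 fold change was 0.14 ± 0.104 (SE) and turned to -0.01 after adjusting for the myelin list. Cacna1s and Cacna1f, the L-type pores of skeletal muscle and of the retina, did not pass the filter, with 1 to 11 reads per library for Cacna1s and 0 to 2 for Cacna1f.

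The Cav2 pores drive transmitter release at nerve terminals. Cacna1a, the P/Q-type pore (rn6 chromosome 19, 25526751 to 25749551), measured 261.4, 240.0, 276.8, 299.4 and 300.1 CPM in untreated rats and 367.9, 358.0, 264.9, 297.9 and 304.9 CPM in BT-11 rats. BT-11 rats 1 and 2 stood apart at the top, and BT-11 rats 3 and 4 lay within the untreated range. Means were 275.6 ± 25.7 and 318.7 ± 43.2 CPM (SD, n = 5 each), a fold of 1.16 with an interval of 1.00 to 1.34 (edgeR, adjusted p = 0.809).

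Cacna1b, the N-type pore (rn6 chromosome 3, 1740056 to 1924910), ranged from 120.3 to 169.6 CPM in untreated and from 144.4 to 176.0 CPM in BT-11 rats, with a log2 fold change of 0.16 ± 0.0963 (SE). It turned to -0.08 after adjusting for the myelin list and to -0.02 for the neuron list. Cacna1e, the R-type pore, had wide spread in both groups (coefficient of variation 20.7% and 19.3%) and a log2 fold change of 0.15 ± 0.156 (SE).

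Cav3 pores carry low-threshold T-type current and support burst firing. Cacna1i (rn6 chromosome 7, 121521787 to 121619301) measured 74.4, 78.0, 68.4, 95.8 and 79.3 CPM in untreated rats and 77.1, 112.7, 79.1, 114.6 and 97.4 CPM in BT-11 rats. BT-11 rats 2 and 4 were highest, and BT-11 rats 1 and 3 lay below the untreated mean, so only 3 of 5 showed the direction of the mean. The fold was 1.22 with an interval of 1.01 to 1.46 (edgeR, adjusted p = 0.809). Cacna1h, the T-type gene with most reads (rn6 chromosome 10, 14730941 to 14788618), averaged 133.5 ± 21.9 CPM in untreated rats against 138.6 ± 25.0 CPM under BT-11 (SD, n = 5 each), a fold of 1.04 (0.854 to 1.26). The sign of its log2 fold change of 0.05 turned without BT-11 library 1 (-0.02) or BT-11 library 5 (-0.01).

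Cacna1g, which in rats is prominent in thalamic relay neurons, had a log2 fold change of -0.05 ± 0.133 (SE) as a gene. It is deposited as a pair of transcript rows at the same locus (rn6 chromosome 10, 82129074 to 82197521), of 7756 and 7654 bases. The longer row held 70.5%, 63.0%, 75.1%, 66.8% and 73.0% of the gene's estimated counts in untreated rats and 73.3%, 76.3%, 74.5%, 73.8% and 78.1% in BT-11 rats. BT-11 rats lay in a narrow band and untreated rats spread from below it into it. Mean shares were 69.7 ± 4.84% and 75.2 ± 1.99% (SD, n = 5 each), with p = 0.0476 in a two-sided exact permutation test and 0.238 after Benjamini-Hochberg adjustment over the 5 channel genes with several rows. Fitted over all 12893 transcript rows, the longer row had a log2 fold change of 0.07 ± 0.129 (SE) and the shorter one of -0.35 ± 0.189 (SE), with edgeR's adjusted p at 0.928 and 0.823. The division of reads between them is an estimate made before deposit.

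**Figure D2:**
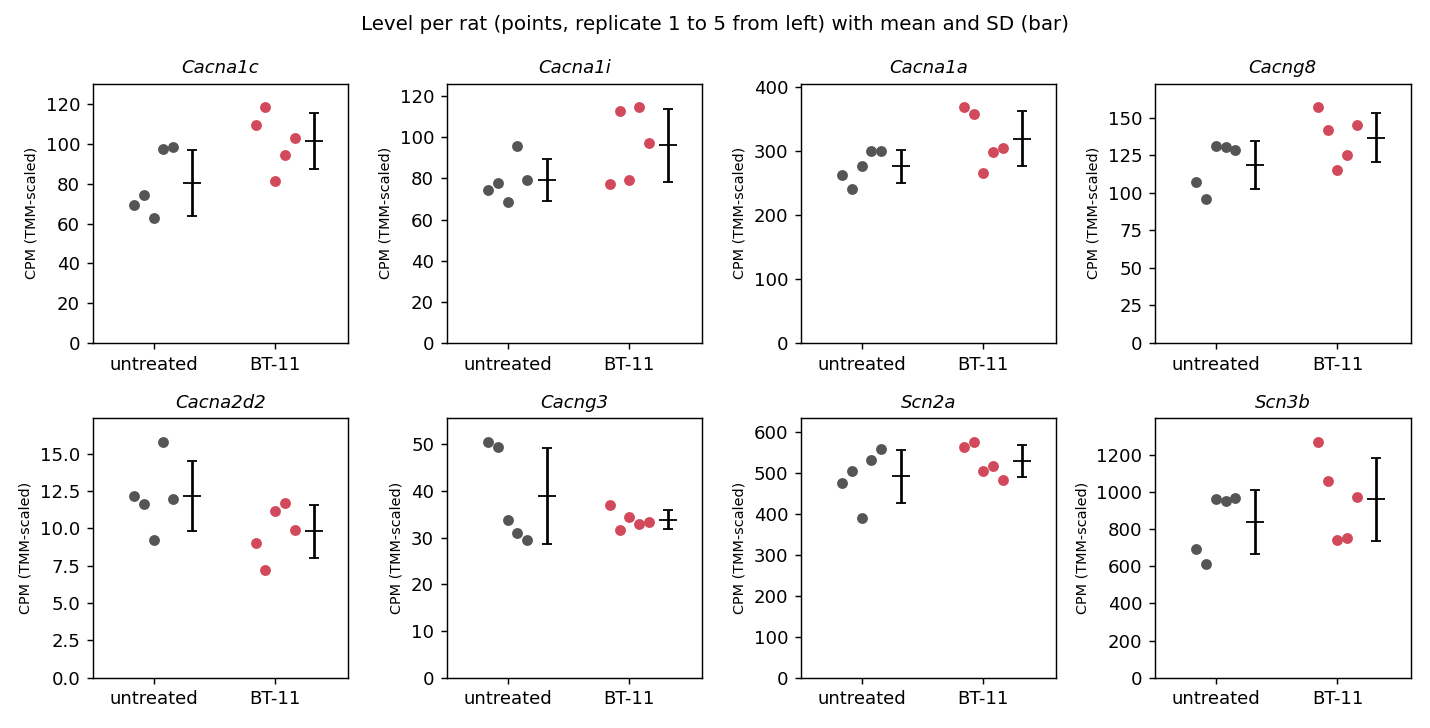
Level in CPM of 8 channel genes in each rat, with untreated rats in grey and BT-11 rats in red, replicates 1 to 5 from left, and the group mean with SD as a black bar. All axes start at 0. Points of the groups overlap in all 8 panels, and untreated rats 1 and 2 stand above the rest for Cacng3.

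Alpha2delta subunits bring calcium channels to the surface, and those encoded by Cacna2d1 and Cacna2d2 bind gabapentin. Cacna2d2 (rn6 chromosome 8, 116154736 to 116283747) was the channel gene furthest in the lower direction by p-value. It measured 12.2, 11.6, 9.23, 15.8 and 11.98 CPM in untreated rats and 9.02, 7.23, 11.2, 11.7 and 9.91 CPM in BT-11 rats. All 5 BT-11 rats lay below the untreated mean, yet untreated rat 3 was lower than 3 of them. The fold was 0.806 with an interval of 0.639 to 1.02 (edgeR, adjusted p = 0.809), and its direction held in all 22 alternatives tried. These alternatives reuse the same rats. The direction also held in all 22 for Cacna1i, Cacna1a, Cacng8, Scn4a, Scn9a, Cacng3, Cacnb3 and Scn3b. Cacna2d2 is known from interneurons, and all 9 genes of the interneuron marker list were lower too, with summed levels of 464 to 695 CPM in untreated and 507 to 611 CPM in BT-11 rats. Between Cacna2d2 and the level of that list Pearson's r was 0.733 and Spearman's rho 0.648 over 10 libraries. Permutation p was 0.0128 and 0.0472, and adjusted p was 0.132 and 0.267. The part of interneuron content in the difference was not tested.

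Cacna2d3, with most reads of this class (rn6 chromosome 16, 4871650 to 5795819), averaged 155.2 ± 19.1 CPM in untreated rats against 158.4 ± 24.1 CPM under BT-11 (SD, n = 5 each). Its log2 fold change of 0.03 changed sign without untreated library 2, untreated library 3, BT-11 library 1 or BT-11 library 2 (-0.03 to -0.01). Cacna2d1 had a fold of 1.05 (0.878 to 1.249). Cacna2d4 had 0 to 8 reads per library and was not tested.

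Cytoplasmic beta subunits bind the loop after the first repeat of the Cav1 and Cav2 pores and shield them from degradation. Cacnb3 had the most reads (rn6 chromosome 7, 140315369 to 140324903), at 202.6 ± 17.3 CPM in untreated rats against 209.1 ± 7.37 CPM under BT-11 (SD, n = 5 each). Its fold was 1.03, with a narrow interval of 0.934 to 1.14, and that of Cacnb1 was 1.02 (0.931 to 1.12). Cacnb2 (rn6 chromosome 17, 81798414 to 82019220) measured 70.8, 75.9, 78.2, 103.6 and 100.7 CPM in untreated and 119.7, 109.8, 83.7, 85.0 and 102.3 CPM in BT-11 rats. As for Cacna1c, untreated rats 4 and 5 stood with the BT-11 rats. Its log2 fold change of 0.22 ± 0.128 (SE) turned to -0.04 after adjusting for the myelin list. Cacnb4 varied widely between untreated rats, from 30.8 CPM in rat 3 to 67.6 CPM in rat 2.

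Most genes named as calcium channel gamma subunits encode TARPs, partners that traffic AMPA-type glutamate receptors and tune their gating. Cacng8, the TARP abundant in hippocampus (rn6 chromosome 1, 64330106 to 64350339), measured 107.4, 96.0, 130.9, 130.2 and 128.7 CPM in untreated and 156.9, 141.6, 114.9, 125.3 and 144.8 CPM in BT-11 rats. The groups overlapped through untreated rats 3 to 5 and BT-11 rats 3 and 4. The fold was 1.15 (0.985 to 1.35, edgeR adjusted p = 0.809), and its direction held in all 22 alternatives, with a log2 fold change of 0.20 in all libraries and 0.12 without the 3 blood-rich ones.

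Cacng3 (rn6 chromosome 1, 192613766 to 192708372) measured 50.5, 49.5, 33.7, 30.9 and 29.5 CPM in untreated rats and 36.9, 31.5, 34.3, 32.9 and 33.3 CPM in BT-11 rats. Untreated rats 1 and 2 stood above all others, untreated rat 3 lay within the BT-11 range, and untreated rats 4 and 5 lay below every BT-11 rat. The same 2 rats had the highest levels of the striatum list, 4.09 and 4.12 against 3.41 to 3.88 in the other 8, and r between Cacng3 and that list was 0.834 over 10 libraries and 0.209 without them (Spearman's rho 0.6, permutation p = 0.00729 for r and 0.0748 for rho, adjusted p = 0.126 and 0.301). That relation therefore rests on 2 libraries. Its log2 fold change of -0.20 ± 0.146 (SE) ranged from -0.29 to -0.09 over single libraries left out.

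Cacng2, known as stargazin, was almost constant among BT-11 rats, from 39.4 to 41.4 CPM, against 35.6 to 49.5 CPM in untreated rats, with a fold of 0.991 (0.871 to 1.13). Cacng7 had one of 1.03 (0.940 to 1.12) and Cacng4, which oligodendrocyte precursors also express, one of 1.02 (0.882 to 1.19). Cacng5, a marker of CA2, was low at 1.02 to 2.02 CPM. Cacng6, a gamma subunit of the skeletal muscle type (rn6 chromosome 1, 64308406 to 64321045), had 2 to 9 reads per library and was not tested.

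Among sodium channel pores, Scn2a and Scn8a serve excitatory neurons at the axon initial segment and Scn1a is best known from fast-spiking interneurons. Scn2a (rn6 chromosome 3, 51687910 to 51822009) measured 474.3, 504.0, 388.2, 531.7 and 556.4 CPM in untreated rats and 562.4, 574.7, 503.4, 516.7 and 482.3 CPM in BT-11 rats. Only untreated rat 3 fell clearly outside the range of the other 9. The fold was 1.075 with an interval of 0.936 to 1.23 (edgeR, adjusted p = 0.844), and the log2 fold change of 0.10 was -0.00138 without the 3 blood-rich libraries and turned to -0.12 after adjusting for the myelin list and to -0.11 for the neuron list.

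Scn8a had a fold of 1.11 (0.906 to 1.36), with BT-11 rats spread from 229.2 CPM in rat 3 to 382.6 CPM in rat 1. Scn1a had one of 0.971 (0.833 to 1.13) and Scn3a, the pore typical of the fetal brain, one of 1.02 (0.873 to 1.19). Scn1a, Scn2a, Scn3a, Scn7a and Scn9a lie next to each other between 51532627 and 52849912 of rn6 chromosome 3. The counts of Scn1a, Scn2a, Scn3a and Scn9a were not whole in any library, so reads were divided between features before deposit and values of these related genes carry that uncertainty.

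Pores known from other tissues were present at low levels. Scn9a and Scn4a, the pores of sensory neurons and of skeletal muscle, measured 2.32 to 4.66 CPM and 3.76 to 5.98 CPM over the 10 libraries. For Scn9a (rn6 chromosome 3, 52583953 to 52664210) the log2 fold change was 0.25 ± 0.18 (SE), with BT-11 rat 1 lowest and BT-11 rat 4 highest of all 10 rats. For Scn4a (rn6 chromosome 10, 94505026 to 94557765) it was 0.22 ± 0.158 (SE), and 4 of 5 BT-11 rats lay above the untreated mean.

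Scn7a (3 to 15 reads per library), Scn10a (0 to 20) and Scn11a (0 to 7) did not pass the filter.

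Sodium channel beta subunits are single-pass membrane proteins that modulate gating and act in cell adhesion. Scn3b, with the most reads of all channel genes (rn6 chromosome 8, 44136496 to 44159012), measured 695.9, 613.6, 962.1, 950.8 and 971.3 CPM in untreated and 1271, 1063, 742.9, 752.2 and 976.3 CPM in BT-11 rats. Both groups were wide and overlapping, with means of 838.7 ± 170.6 and 961.1 ± 222.5 CPM (SD, n = 5 each) and a fold of 1.15 (0.892 to 1.47). Scn2b (rn6 chromosome 8, 49419003 to 49427551) measured 71.1 to 111.9 CPM in untreated and 87.9 to 109.6 CPM in BT-11 rats, a log2 fold change of 0.13 ± 0.105 (SE) that turned to -0.16 after adjusting for the myelin list and to -0.12 for the neuron list.

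Scn4b, the beta subunit linked to resurgent current, had a fold of 1.04 (0.926 to 1.18).

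Levels were compared between genes as CPM per kilobase of transcript row, since long rows collect more reads. In untreated rats Scn3b stood at 215.8 ± 43.9 and Scn2b at 106.8 ± 17.8 CPM per kilobase (SD, n = 5). Scn2a made up 47.0 ± 1.61% of the sodium pore sum, Scn8a 35.1 ± 2.35% and Scn1a 10.5 ± 0.49% (SD, n = 5). The corresponding shares with BT-11 were 47.2 ± 2.71%, 36.1 ± 3.57% and 9.56 ± 0.58%.

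Among calcium pores Cacna1a held the largest share of the per-kilobase sum, 25.4 ± 1.78% in untreated rats and 26.0 ± 1.11% with BT-11. Cacna1e held 17.5 ± 2.48%, Cacna1h 14.0 ± 2.76% and Cacna1b 12.4 ± 0.784% in untreated rats, with overlapping spreads between neighbours in this order. Cacna1c held 7.94 ± 0.939% untreated and 8.94 ± 0.387% with BT-11. The sum over the 10 calcium pores was 121.9 ± 11.5 CPM per kilobase in untreated rats (109.6 to 136.1) and 137.2 ± 15.1 with BT-11 (114.0 to 151.0), and that over the 10 sodium pores was 124.9 ± 17.0 and 134.1 ± 14.2. Group ranges overlapped for both sums. Within the gamma subunits, Cacng6 included, Cacng8 held the largest share (38.3 ± 5.48% untreated) and Cacng7 the next (22.1 ± 0.716%). Within the calcium channel beta subunits it was Cacnb3 (48.5 ± 3.27%) and within alpha2delta subunits Cacna2d3 (57.1 ± 4.77%). Row lengths are those deposited, and a row that leaves out part of a transcript shifts this scale.

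**Figure D3:**
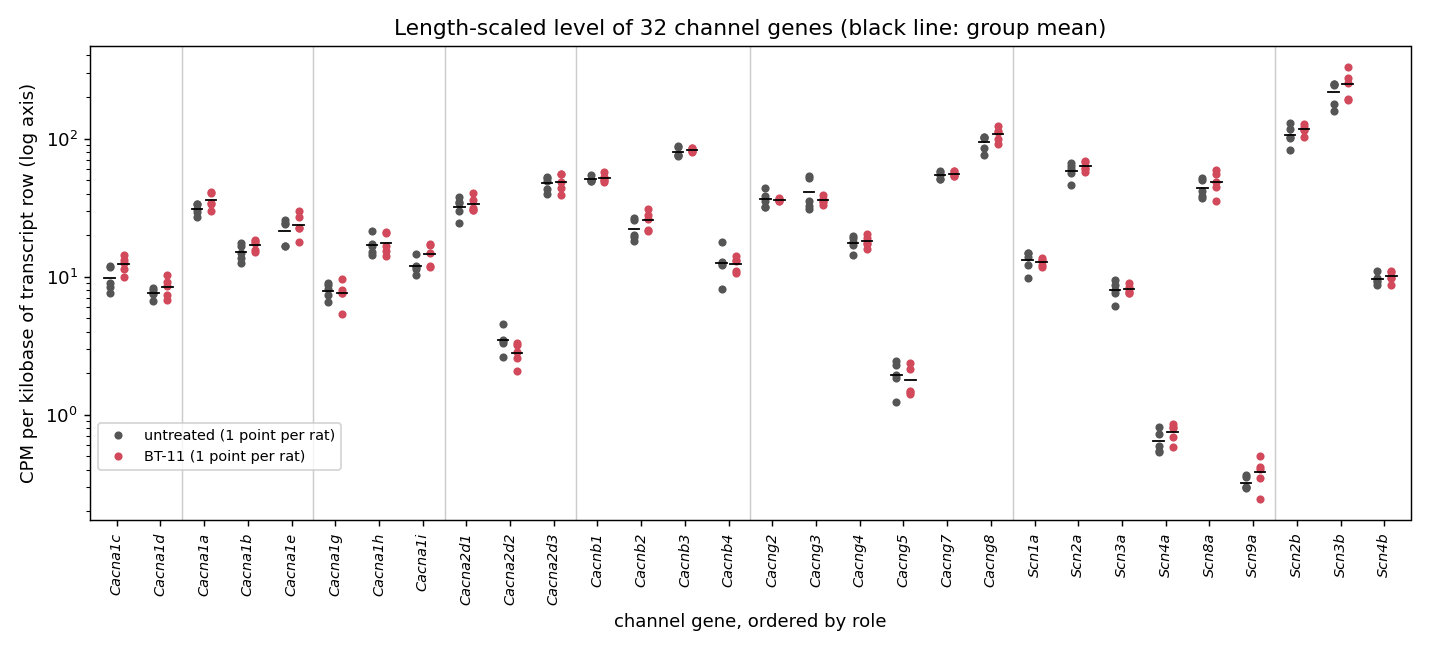
Level of 30 tested channel genes in CPM per kilobase of transcript row on a log axis, with 1 point per rat, a black line at each group mean and grey lines between roles. Among the genes drawn Scn3b lies highest and Scn9a lowest, and grey (untreated) and red (BT-11) points of each gene overlap.

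Most channel transcripts varied more between rats than the median gene of like level. The mean of the within-group coefficients of variation exceeded the median of tested genes in the same level class for 26 of 32 channel genes, and the median over channel genes was 14.2% against 11.2% for all genes tested. Cacng7, Cacnb1 and Cacnb3 were the steadiest, at 4.91%, 5.72% and 6.03%. Scn3b and Cacnb4 stood at 21.7% and 19.9%, above the medians of their level classes (8.25% and 9.27%). Both are examples rather than the top of a ranking, and Cacna1e stood above Cacnb4. Cacng5, a gene with few reads, stood at 24.6%, which is below the median of 27.8% in its class.

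Pore and auxiliary genes did not deviate alike in every rat. In untreated rats 1, 2 and 3, 1, 5 and 2 of the 15 pore genes lay above their own mean over the 10 libraries, and in untreated rats 4 and 5 it was 12 each. In BT-11 rats 1, 2 and 5 it was 11, 12 and 11, in BT-11 rat 4 it was 9, and in BT-11 rat 3 it was 3. Untreated rat 3 was the lowest of all rats for 9 of 32 channel genes and the highest for 5, and BT-11 rat 1 was the highest for 9 and the lowest for 3. Such counts of highest and lowest rats were made for channel genes only. The neuron list level was 9.05 in untreated rat 3 and 9.41 in BT-11 rat 1. It was 9.36 in both BT-11 rat 3 and untreated rat 4, which had 3 and 12 pore genes above their mean. Of 17 auxiliary genes, 10, 6, 8, 9 and 10 lay above their mean in untreated rats 1 to 5 and 13, 9, 5, 6 and 10 in BT-11 rats 1 to 5. The share of all genes tested that lay above their own mean ran from 48.6% in BT-11 rat 2 to 54.5% in BT-11 rat 3.

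**Figure D4:**
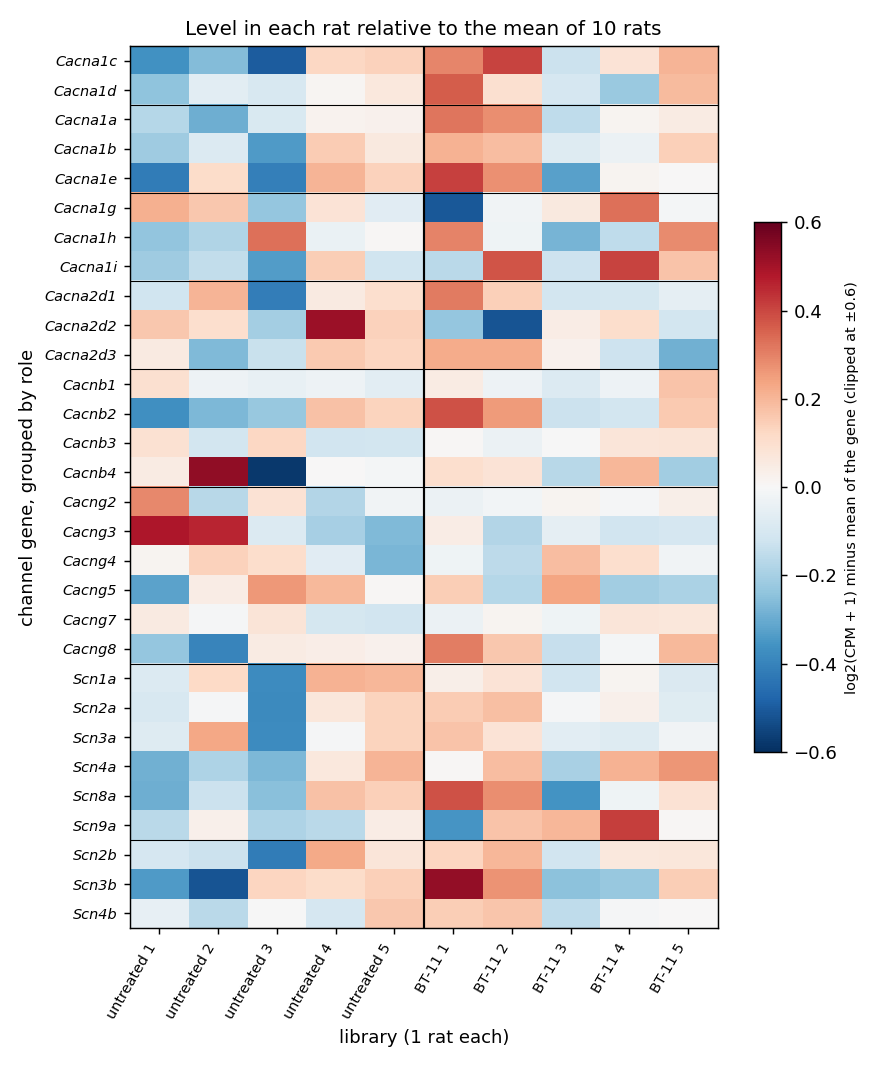
Level of 30 tested channel genes in each rat as log2(CPM + 1) minus the gene's mean over 10 rats, red above and blue below, with roles divided by horizontal lines and groups by a vertical line. Columns for untreated rats 1, 2 and 3 and BT-11 rat 3 are mostly blue over the pore genes. Those for untreated rats 4 and 5 and BT-11 rats 1, 2 and 5 are mostly red.

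The levels of the 32 channel genes were set against those of 13 marker lists over the 10 libraries, 415 pairs in all, by permutation of the libraries with Benjamini-Hochberg adjustment over the pairs. The choroid plexus and blood lists were left out because 2 and 3 libraries stand apart in them. On Pearson's r 4 pairs passed an adjusted p of 0.05. Cacna1c went with the neuron list (r = 0.90, rho = 0.83, permutation p = 0.00024 and 0.00473) and against the thalamus list (r = -0.91, rho = -0.952, permutation p = 0.00037 and 1e-04). Cacng8 and Scn3b went against the striatum list, with r = -0.922 and rho = -0.867 for Cacng8 (permutation p = 0.00018 and 0.00218) and r = -0.891 and rho = -0.964 for Scn3b (permutation p = 0.00041 and 6e-05).

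The adjusted p on r was 0.0425 for each of the 4, and on rho it was 0.113 and 0.0138 for the pairs of Cacna1c, 0.0883 for Cacng8 and 0.0138 for Scn3b. Without the 2 libraries farthest from the list's median, r was 0.838 and -0.829 for Cacna1c, -0.798 for Cacng8 and -0.782 for Scn3b. With levels centred within each group r was 0.838, -0.876, -0.901 and -0.884 for Cacna1c with neurons, Cacna1c with thalamus, Cacng8 and Scn3b. Next by p-value, Scn2b and Scn2a went with the neuron list (r = 0.895 and 0.894, rho = 0.782 and 0.891, permutation p = 0.00097 and 0.00099 for r and 0.0106 and 0.00102 for rho, adjusted p = 0.0604 for r, 0.151 and 0.0775 for rho). On rho alone Cacna1a passed against the striatum list (rho = -0.964, r = -0.88, permutation p = 8e-05 and 0.00111, adjusted p = 0.0138 and 0.0604). All pairs share the same 10 libraries and scaling, and lists vary together.

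**Figure D5:**
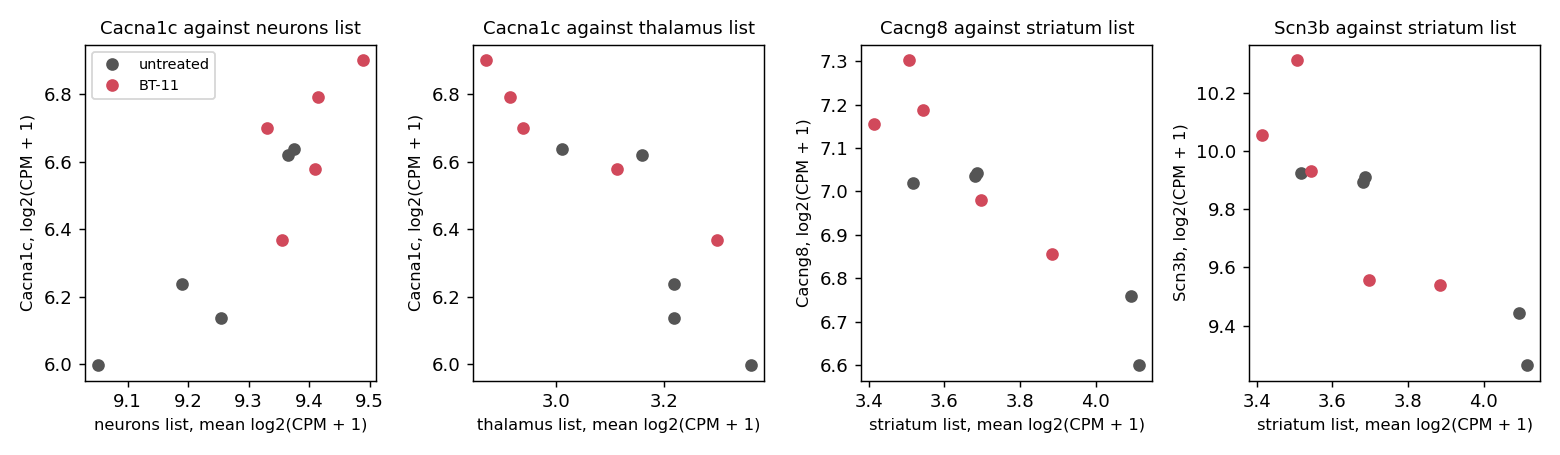
Level of Cacna1c, Cacng8 and Scn3b in log2(CPM + 1) against the mean level of a marker list in the same units, with 1 point per rat (grey untreated, red BT-11). Cacna1c climbs with the neuron list and declines with the thalamus list, and Cacng8 and Scn3b decline with the striatum list.

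Genes that act with these channels gave no passing test either. Of 13 tested sodium channel partners 8 were higher and 5 lower with BT-11 (median log2 fold change 0.06), and of 21 tested calcium channel partners 16 were higher and 5 lower (median 0.08). Among all genes tested 50% were higher. Fgf13, an intracellular factor that binds sodium channel tails, measured 184.4 to 286.5 CPM untreated and 259.2 to 332.0 CPM under BT-11, which is a log2 fold change of 0.36 ± 0.136 (SE). Its companions by p-value, Ptprz1 and the adhesion protein gene Cntn1, had 0.13 ± 0.08 and 0.20 ± 0.139 (SE). At the presynaptic active zone, where calcium channels are tethered, Rims1 had 0.22 ± 0.0804, the SNARE protein gene Snap25 had 0.25 ± 0.103 and the scaffold gene Bsn had 0.23 ± 0.107 (SE). The groups overlapped for Snap25 and Bsn but not for Rims1, at 285.3 to 355.8 CPM against 358.3 to 432.1 CPM. Over all genes tested, 0.3% were separated upward and 0.542% downward, and Rims1 was named for its small p-value. Snap25 is also a gene of the neuron list. Adjusted p from edgeR was 0.809 or higher for the partner genes named here.

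For the sodium leak channel, Nalcn and Unc79, a subunit of its complex, had log2 fold changes of 0.17 ± 0.124 and 0.06 ± 0.0867 (SE). Of 19 tested genes of intracellular calcium release, pumps and exchangers 14 were higher and 5 lower (median 0.09), where 50% of all genes were higher. The gene with the smallest p-value there was lower: Slc8a3, a sodium-calcium exchanger, at 16.8 to 31.3 CPM untreated and 10.1 to 18.8 CPM under BT-11, which is a log2 fold change of -0.62 ± 0.205 (SE, edgeR adjusted p = 0.8). Slc8a3 is expressed in oligodendrocytes as well as neurons, and the myelin list was lower in the same group, whose part in the difference was not tested. The endoplasmic reticulum pumps Atp2a2 and Atp2a3 had log2 fold changes of 0.16 ± 0.0812 and -0.50 ± 0.254 (SE). These partner lists were picked by function, with earlier results of these data known, and the genes named from each are those with the smallest p-values.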

How the data were processed

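Per the labels' protocols, hippocampal RNA (RNeasy) went into stranded mRNA-seq libraries (KAPA) read in pairs on a NovaSeq6000. The tools named are STAR 2.7.9a, bcl2fastq 2.19.1.403, DESeq2 and Partek, and the build is rn6, per the submitters' processing notes. How reads were counted, and with which annotation and strand setting, is not given in the sources used here. In 1 table the authors deposited estimated counts (expected counts) for 14806 transcript rows, of which 14.6% of values were not whole within 1e-06, and a second table of normalized signal, in which the deposited counts of a library are multiplied by 1 factor (0.822 to 1.15). Start coordinates are printed as deposited and may be off by 1 base.

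Rows were added up per symbol (several rows for 785 symbols) and rounded, although the design assumed counts per gene. Genes kept by filterByExpr were TMM-scaled and tested with edgeR 4.0.16 (quasi-likelihood, no covariate, two-sided, R 4.3.3), with Benjamini-Hochberg adjustment over all genes and a threshold of 0.05. Standard errors come from the fold change and F statistic, and 95% intervals from those. DESeq2 1.42.0 and limma 3.58.1 were alternatives. The fit was tested on simulated data. Counting error adds to the spread between rats mainly for genes with few reads.

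Genes named by rule were the 12 with the smallest p-values and the gene with most reads in each role, and 3 by p-value in each partner list. Some of these are given only by a range or a log2 fold change. Others singled out were chosen after their values were seen. The members and lists were chosen with earlier results of these data known. Promoter sequences are from RefSeq, GRCr8, matched by symbol for 27 of 39 genes. Replicate numbers did not pair the rats. Python 3.11.15, scipy 1.17.1 and matplotlib 3.10.9 were used. Some genes enter the counts but are not reported here by name.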

Additional observations from a re-analysis of the deposited data

Results flagged for a closer look

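Of 78 groups of 5 rats checked over the 39 channel genes, 4 held a rat far from the other 4, where chance gives about 3.9 for normally distributed values. That rate does not hold for genes with counts near 0, such as Scn10a and Scn11a. Cacnb1 stood at 178.3 CPM in untreated rat 1 against 159.6 to 163.7 CPM in the other untreated rats. Scn10a stood at 1.28 CPM in untreated rat 2 (20 reads) against 0 to 0.268 CPM, and at 0.373 CPM in BT-11 rat 4 (6 reads) against 0 to 0.0657 CPM. Scn11a stood at 0.460 CPM in BT-11 rat 3 (7 reads) against 0 to 0.130 CPM.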

How the results depend on the processing

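No channel gene passed an adjusted p of 0.05 in any of the 22 alternatives. The number of all genes passing was 8 with DESeq2 and 0 in the other 21. The count of channel genes higher at an unadjusted p under 0.05, 3 with all libraries, was 0 to 5 with single libraries left out, 1 on the deposited normalized values with limma, 0 with the myelin level and 0 with the neuron level as a covariate, 8 without both choroid-rich libraries and 0 without the 3 blood-rich libraries. The count lower, 0 with all libraries, was 0 to 1 with single libraries left out, 1 with the myelin level and 2 with the neuron level. With the myelin level 14 channel genes were above 0. That level nearly divides the groups, so adjusting for it also takes out part of the group difference. The neuron, choroid and blood settings were chosen after seeing the data. The cause of these shifts was not tested.

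Adjusting for the myelin list, the log2 fold change reversed for Cacna1c (-0.00979), Cacnb2 (-0.0393), Cacna1b (-0.0756), Cacna1d (-0.00956), Scn2b (-0.158), Cacna2d3 (-0.197) and Scn2a (-0.115). With the neuron level it reversed for Cacna1b (-0.0176), Scn2b (-0.117), Cacna2d3 (-0.175) and Scn2a (-0.106). Without the 3 blood-rich libraries it reversed for Cacna2d3 (-0.128) and Scn2a (-0.00138). Leaving out single libraries, that of Cacna2d3 ranged from -0.0299 to 0.0991 and that of Cacna1h from -0.0196 to 0.153. The median over the channel genes ranged from 0.0476 to 0.109 with single libraries left out and was -0.0131 with the myelin level.

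With the replicate number as a block, 0 channel genes passed, 2 were higher at an unadjusted p under 0.05 and the median was 0.0578. Same-numbered rats did not deviate together (correlations from -0.353 to 0.121), so the numbers do not pair the samples, and the block changed no call. Genes with few reads, such as the 7 that were not tested, have the least precise values.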
